A study of Arabidopsis thaliana with 24 samples.

Results

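Gene expression in the pickle mutant was compared with the wild type in whole 9-day-old Arabidopsis thaliana seedlings, with 3 biological replicates labelled pkl-1 (pkl) and 3 labelled WT. The labels give continuous white light and the number 28, whose unit they do not spell out, for all 6 libraries. Of the 33612 genes in the count table, the 22130 with enough counts were tested in 6 of the 24 samples of the series. The series also holds seedlings at 28 labelled pif4 and pkl-1pif4 (pklpif4), which entered the fit and a second comparison, and 12 samples labelled with continuous red light, which were not analysed here. The labels do not say what the ecotype is or how many parents the seedlings came from, so p-values measure the spread between these libraries.

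PKL is a CHD3-type chromatin remodeller, an ATP-driven enzyme that moves nucleosomes. It is known for keeping embryo and seed genes silent after germination and for its part in repressive histone methylation, and the mutant is named for swollen, seed-like roots. Expression was counted per gene and is given as CPM, counts scaled to a common library size with TMM factors, and changes are log2 of pkl over WT ± SE. A gene was called when its adjusted p was under 0.05 (edgeR quasi-likelihood test, Benjamini-Hochberg over all genes tested).

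The WT libraries held between 37762216 and 56492669 counts, and the pkl libraries between 41220985 and 52980805. On the first principal component of the 6 libraries, which held 74.2% of the variance, WT and pkl separated. PKL (AT2G25170; chromosome 2, 10713807 to 10723986) had 93.0, 97.6 and 101 CPM in WT and 99.4, 107 and 101 CPM in pkl, with no call (log2 0.08 ± 0.04, adjusted p = 0.0547). The groups overlapped, so the transcript does not check the label, since the labels do not say that the pkl-1 allele lowers it. The call appeared without WT replicate 3 (adjusted p = 0.0206) or without pkl replicate 1 (adjusted p = 0.0249), and also with RLE factors (adjusted p = 0.0396) or library totals (adjusted p = 0.000263). PIF4, which encodes a growth-promoting transcription factor, fell from 105, 100 and 96.0 CPM in WT to 68.4, 66.4 and 62.5 CPM in pkl (log2 -0.61 ± 0.03, adjusted p = 2.33e-31).

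In pkl, 27.1% of the tested genes were called higher and 26.5% lower, with a median log2 change over all genes of 0.00060. Among the called genes 50.5% were higher, a share of 62.0% when scaled by library totals. Of all genes, 7.96% were called and at least 2-fold higher, and 2.93% at least 2-fold lower. Genes with a mean under 5 CPM made up most of both groups. The WT and pkl libraries did not overlap for 12859 of the 22130 genes tested, so such a gap was common. Among genes with a mean under 1 CPM over the 12 libraries fitted, 23.1% rose and 9.18% fell by at least 2-fold, against 1.40% and 0.362% of genes over 100 CPM. The share called higher ran from 27% to 27.7% over the 5 nuclear chromosomes, and the share called lower from 25% to 27.5%.

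**Figure D1:**
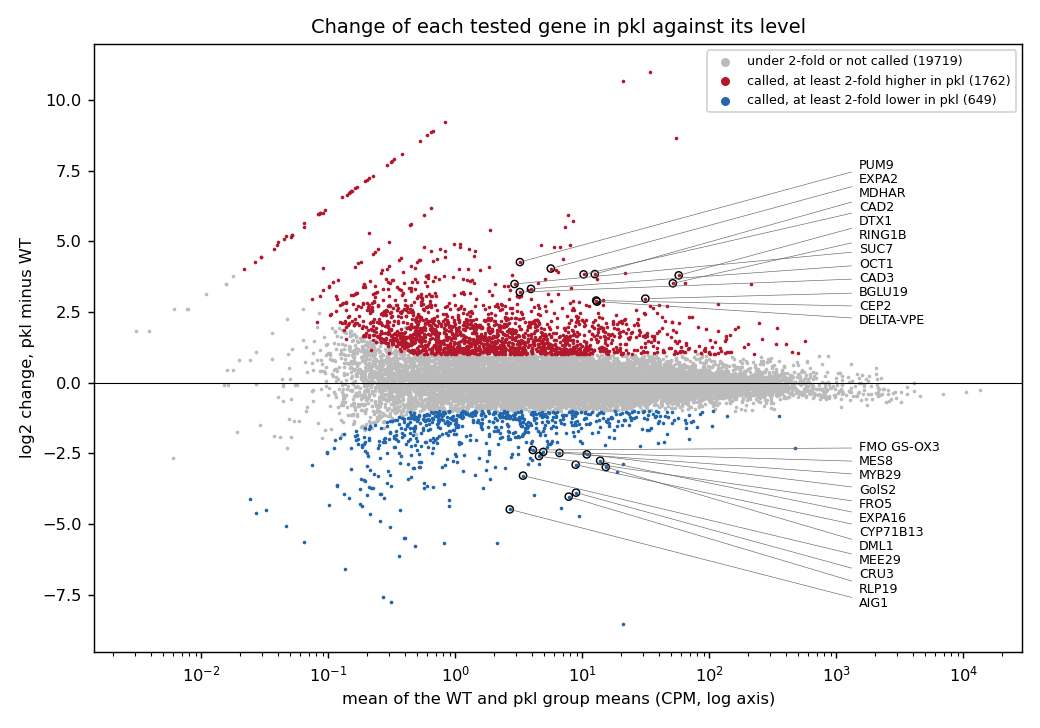
Log2 change of each tested gene (y axis) against the mean of its 2 group means in CPM (log x axis), with the 12 largest rises and 12 largest falls of genes with a symbol circled. The 1762 genes at least 2-fold higher outnumber the 649 lower, and both thin out at high levels; the straight diagonal is of genes with 0 counts in WT, whose fitted change is not a bound.

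The 12 largest rises among named genes of at least 5 CPM held enzymes, transporters and regulators. DTX1 (AT2G04040; chromosome 2, 1334512 to 1336489), a MATE-type efflux carrier of toxic compounds, rose from 8.16, 6.6 and 8.19 CPM in WT to 105, 106 and 109 CPM in pkl (log2 3.80 ± 0.06, adjusted p = 2.52e-80). RING1B (AT1G03770; chromosome 1, 944572 to 947483), a RING finger protein of the Polycomb repressive machinery, rose from 8.1, 7.26 and 9.54 CPM in WT to 93.9, 96.1 and 94.5 CPM in pkl (log2 3.52 ± 0.06, adjusted p = 3.1e-75). All 3 pkl libraries lay far above all WT libraries for both genes. BGLU19, a beta-glucosidase, rose from 7.63, 7.26 and 6.14 CPM in WT to 58.3, 55.7 and 52.9 CPM in pkl (log2 2.98 ± 0.06, adjusted p = 7.75e-71). Among the genes that were near silent in WT, PUM9, an RNA-binding Pumilio protein, rose from 0.181, 0.458 and 0.351 CPM in WT to 6.56, 5.56 and 6.23 CPM in pkl (log2 4.27 ± 0.24, adjusted p = 2.86e-31). EXPA2, an expansin that loosens cell walls, rose from 0.651, 0.407 and 0.892 CPM in WT to 11.9, 9.73 and 10.2 CPM in pkl (log2 4.04 ± 0.14, adjusted p = 1.96e-48). Neither gene overlapped between the groups, which was a condition for naming any of the 12 rises. MDHAR, a monodehydroascorbate reductase of the ascorbate cycle, went from 1.75, 1.58 and 1.51 CPM in WT to 23.7, 24.2 and 22.5 CPM in pkl (log2 3.84 ± 0.12, adjusted p = 2.89e-54).

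The other 6 rises were of the alcohol dehydrogenase homologues CAD2 (log2 3.83 ± 0.13) and CAD3 (3.21 ± 0.22), the sucrose carrier SUC7 (3.49 ± 0.29), the cation and carnitine carrier OCT1 (3.32 ± 0.17), the cysteine protease CEP2 (2.91 ± 0.10) and the vacuolar processing enzyme DELTA-VPE (2.87 ± 0.09). SUC7 has near-identical relatives in its family, so its count is uncertain.

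Among the 12 largest falls was ROS1 (AT2G36490; chromosome 2, 15308021 to 15314807), named DML1 in the reference, the DNA glycosylase that removes methylated cytosine. It had 27.4, 28 and 25.8 CPM in WT and 3.19, 3.76 and 3.37 CPM in pkl (log2 -2.98 ± 0.10, adjusted p = 2.46e-51). All 3 pkl libraries were far below all WT libraries. MEE29, an RNA helicase, fell from 6.57, 5.53 and 6.51 CPM in WT to 0.810, 0.260 and 0.791 CPM in pkl (log2 -3.29 ± 0.22, adjusted p = 2.93e-26). The receptor-like protein gene RLP19 fell from 14.4, 14.4 and 15.3 CPM in WT to 0.571, 0.947 and 1.23 CPM in pkl (log2 -4.03 ± 0.16, adjusted p = 4.73e-43). Both were under 1.5 CPM in every pkl library. EXPA16, another expansin, fell from 24.6, 23.9 and 23.6 CPM in WT to 3.20, 3.79 and 3.70 CPM in pkl (log2 -2.76 ± 0.10, adjusted p = 1.19e-45). GolS2, a galactinol synthase known from drought and heat responses, fell from 18.9, 17.5 and 19.1 CPM in WT to 3.50, 2.53 and 3.49 CPM in pkl (log2 -2.53 ± 0.12, adjusted p = 3.18e-37). Again no pkl library reached a WT library, which was a condition for naming any of the 12 falls. The remaining falls were of the immune-related GTPase AIG1 (log2 -4.48 ± 0.34), the storage globulin CRU3 (-3.89 ± 0.07), the cytochrome P450 CYP71B13 (-2.90 ± 0.13), the ferric reductase homologue FRO5 (-2.60 ± 0.17), the methyl esterase MES8 (-2.45 ± 0.15), and the glucosinolate genes MYB29 (-2.49 ± 0.15) and FMO GS-OX3 (-2.38 ± 0.20).

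Among genes changed at least 1.5-fold, those that gained and lost most by absolute level were of other kinds. On the FPKM scale, which divides by exon length and library total, DR4, a protease inhibitor-like gene repressed by drought, rose from 137 ± 5.38 to 551 ± 12.8 FPKM (mean ± SD, n = 3). The extensin EXT3, a cell wall glycoprotein, rose from 177 ± 1.38 to 516 ± 22.9 FPKM, the nitrilase NIT2 from 342 ± 1.83 to 691 ± 11.4 FPKM and the aquaporin PIP1;5 from 381 ± 4.40 to 671 ± 11.1 FPKM. The metallothionein MT1A rose from 4239 ± 124 to 6992 ± 235 FPKM, but it lies inside AT1G07590, which is read from the same strand and rose with it, so their reads cannot be told apart. Within the same limit of at least 1.5-fold, the 6 largest falls were of light-harvesting genes, LHB1B2, LHCA4, LHCA2, LHB1B1, LHCB3 and LHCB4.2, with log2 changes from -2.31 to -0.59.

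LHB1B1 and LHB1B2 encode the light-harvesting protein Lhcb1 and are neighbours, read outward from 1038 bases between them. Their coding sequences are 91.5% identical over 804 aligned columns, so reads that match both are uncertain. LHB1B1 fell from 784, 784 and 781 CPM in WT to 157, 155 and 163 CPM in pkl (log2 -2.31 ± 0.02, adjusted p = 1.49e-103). LHB1B2, the more abundant copy with 3726 ± 28.6 FPKM in WT against 760.3 ± 1.16 for LHB1B1 (SD, n = 3), fell from 3946, 3989 and 4002 CPM in WT to 2403, 2567 and 2506 CPM in pkl (log2 -0.67 ± 0.02, adjusted p = 4.87e-64). Both neighbours fell, LHB1B1 by the larger fold and LHB1B2 by more FPKM. The sequences below are the 250 bases before each RefSeq start in build TAIR10.1, shown because these copies differ in response; capitals mark the letters ACGT, the core of many light-response elements, which reads the same on both strands. LHB1B1 is chr2:14524357-14524606 on the plus strand and LHB1B2 is chr2:14523569-14523818 on the minus strand.
LHB1B1: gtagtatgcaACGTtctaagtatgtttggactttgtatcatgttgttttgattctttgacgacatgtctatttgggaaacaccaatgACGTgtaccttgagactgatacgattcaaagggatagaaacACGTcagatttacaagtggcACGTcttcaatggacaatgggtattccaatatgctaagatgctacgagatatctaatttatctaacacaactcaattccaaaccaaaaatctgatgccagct
LHB1B2: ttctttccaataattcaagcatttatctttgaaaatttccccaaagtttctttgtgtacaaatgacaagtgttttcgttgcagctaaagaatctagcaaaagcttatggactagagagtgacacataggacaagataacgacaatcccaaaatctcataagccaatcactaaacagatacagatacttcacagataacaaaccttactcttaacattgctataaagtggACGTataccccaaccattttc
LHB1B1 held 4 matches and LHB1B2 held 1. Of 27443 such windows of nuclear protein-coding genes, 44.1% held at least 1. A match is a description of the letters and not a binding site.

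Genes of sulfate uptake and assimilation were mostly higher. Plants take up sulfate through SULTR carriers, activate it with ATP sulfurylase, and reduce it with APR enzymes and sulfite reductase. Of 18 tested genes of 18 listed, 14 were called higher and 0 lower, or 77.8% higher against 27.1% of all genes, with a median log2 change of 0.59. The root uptake carrier SULTR1;1 had 0.832, 0.815 and 1.16 CPM in WT and 5.17, 4.40 and 4.0 CPM in pkl (log2 2.29 ± 0.21, adjusted p = 1.11e-17). Its partner SULTR1;2 had 20.7, 17.8 and 18.8 CPM in WT and 56.4, 55.9 and 50.8 CPM in pkl (log2 1.5 ± 0.06, adjusted p = 1.98e-45). The groups did not overlap for either carrier, as for 12859 of the 22130 genes tested. Sulfite reductase, SIR, rose from 289, 283 and 286 CPM in WT to 596, 609.6 and 601 CPM in pkl (log2 1.07 ± 0.02, adjusted p = 5.62e-70), and LSU1, a marker of low sulfur, rose from 1.07, 1.02 and 1.08 CPM in WT to 2.01, 1.89 and 2.84 CPM in pkl (log2 1.08 ± 0.26, adjusted p = 0.000255). The vacuolar exporters SULTR4;1 and SULTR4;2 rose by log2 0.72 ± 0.05 and 0.70 ± 0.08, and the reductases APR1, APR2 and APR3 by 0.54 ± 0.06, 0.56 ± 0.03 and 0.73 ± 0.04. The 4 members with no call were LSU2 (0.03 ± 0.17), SULTR2;1 (0.02 ± 0.03), GSH2 (0.01 ± 0.04) and SDI2 (AT1G04770; -0.04 ± 0.09). In 250 bases before the start, GAGAC, the core of a sulfur-responsive element, searched on both strands, stood in 2 of the 18 members and in 25.4% of the 21127 such genes tested.

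Other nutrient lists held rises and falls side by side, and the shares called higher and lower are to be read against 27.1% and 26.5% of all genes. Of 14 tested phosphate genes, 6 rose and 7 fell (42.9% and 50.0%, median 0.13). The phosphatase gene PEPC1 rose by log2 2.19 ± 0.32 and the noncoding RNA IPS1 by 1.79 ± 0.43, while SPX1, a phosphate sensor, fell by 0.89 on the log2 scale from 10.6, 11.2 and 10.6 CPM to 5.67, 6.16 and 5.70 CPM and the ubiquitin-conjugating enzyme gene PHO2 changed by -0.77 ± 0.03. Of 17 nitrogen genes, 7 rose and 8 fell (41.2% and 47.1%). Among them the NADH-dependent glutamate synthase GLT1 rose from 579, 561 and 592 CPM in WT to 1119, 1138 and 1119 CPM in pkl (log2 0.96 ± 0.02, adjusted p = 3.09e-71), and the plastid glutamine synthetase GS2 fell from 2132, 2128 and 2175 CPM in WT to 1618, 1661 and 1587 CPM in pkl (log2 -0.40 ± 0.02, adjusted p = 4.64e-43). Of 21 iron genes, 5 rose and 6 fell, shares near those of all genes (23.8% and 28.6%), with FRO2, the root ferric reductase, at 0.53 ± 0.10. Of 24 aquaporins, which conduct water and small solutes, 10 rose and 12 fell (41.7% and 50.0%). The largest rises were of the seed vacuole form TIP3;1 (2.74 ± 0.18), NLM1 (2.56 ± 0.12) and TIP4;1 (1.37 ± 0.14).

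**Figure D2:**
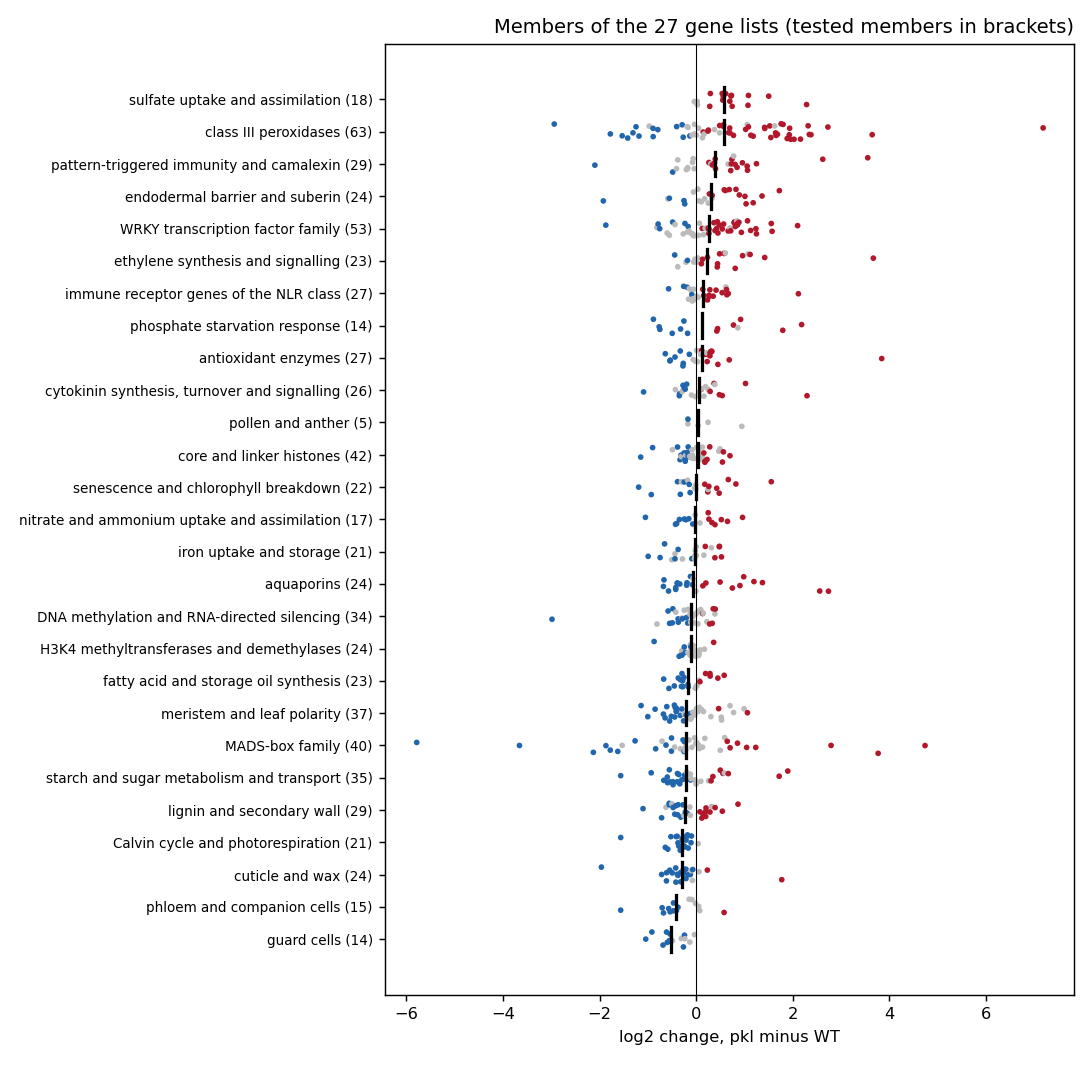
Log2 change (x axis) of every tested member of the 27 gene lists (y axis, ordered by median). Red points were called higher, blue points lower and grey points not called, and the black bar is the median, from -0.52 for guard cells to 0.59 for sulfate uptake and assimilation.

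Genes of surface immunity were more often higher than lower. These genes encode receptors for microbial patterns, the kinases and WRKY factors they activate, and enzymes of the antimicrobial compound camalexin. Of 29 tested, 16 were called higher and 2 lower (55.2% and 6.90%, against 27.1% and 26.5% of all genes; median 0.40). WRKY33, a regulator of camalexin synthesis, rose from 15.4, 17.0 and 19.2 CPM in WT to 41.0, 41.4 and 39.6 CPM in pkl (log2 1.25 ± 0.06, adjusted p = 7.61e-35). The kinase gene MPK11 rose from 0.615, 0.840 and 0.486 CPM in WT to 4.88, 3.20 and 3.88 CPM in pkl (log2 2.62 ± 0.25, adjusted p = 1.19e-16). No WT library reached a pkl library for either, and groups did not overlap for 12859 of the 22130 genes tested. The receptor genes FLS2 (log2 0.81 ± 0.06) and EFR (1.06 ± 0.13), which detect flagellin and elongation factor Tu, also rose. PROPEP3, precursor of a danger peptide, had 0.109, 0 and 0 CPM in WT and 0.331, 0.971 and 0.372 CPM in pkl, with 6 counts in all WT libraries and 75 in all pkl libraries, a ratio of 11.8 (exact 95% interval 3.79 to 60.5, counting error only). The members that fell were CYP71A13, an enzyme of camalexin synthesis, from 5.79, 5.75 and 5.95 CPM in WT to 1.23, 1.82 and 1.05 CPM in pkl (log2 -2.1 ± 0.18, adjusted p = 2.53e-19), and WRKY53 (-0.49 ± 0.18), whose call was lost without WT replicate 3 (adjusted p = 0.0915) or pkl replicate 2 (adjusted p = 0.0688).

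The promoters of the 3 largest rises and of CYP71A13 are printed because WRKY factors bind the W-box; capitals mark TTGACC or TTGACT on either strand (GGTCAA or AGTCAA when on the other strand) in 250 bases before the RefSeq start, build TAIR10.1. PROPEP3 is chr5:25939312-25939561, MPK11 chr1:201853-202102 and WRKY33 chr2:16107985-16108234, all on the plus strand, and CYP71A13 is chr2:13111989-13112238 on the minus strand.
PROPEP3: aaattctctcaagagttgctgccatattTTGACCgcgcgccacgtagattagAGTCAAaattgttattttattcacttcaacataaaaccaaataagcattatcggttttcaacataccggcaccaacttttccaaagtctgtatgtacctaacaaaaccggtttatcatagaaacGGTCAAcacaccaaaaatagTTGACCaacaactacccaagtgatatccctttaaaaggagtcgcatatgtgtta
MPK11: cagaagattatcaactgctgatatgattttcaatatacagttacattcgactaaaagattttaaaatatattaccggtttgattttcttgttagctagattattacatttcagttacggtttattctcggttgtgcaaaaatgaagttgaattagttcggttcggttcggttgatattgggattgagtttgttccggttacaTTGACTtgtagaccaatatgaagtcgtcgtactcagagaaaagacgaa
WRKY33: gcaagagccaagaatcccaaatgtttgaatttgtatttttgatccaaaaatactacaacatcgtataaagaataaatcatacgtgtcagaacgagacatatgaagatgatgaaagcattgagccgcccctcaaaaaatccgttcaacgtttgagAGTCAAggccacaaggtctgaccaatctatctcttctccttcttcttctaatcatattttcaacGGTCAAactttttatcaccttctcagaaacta
CYP71A13: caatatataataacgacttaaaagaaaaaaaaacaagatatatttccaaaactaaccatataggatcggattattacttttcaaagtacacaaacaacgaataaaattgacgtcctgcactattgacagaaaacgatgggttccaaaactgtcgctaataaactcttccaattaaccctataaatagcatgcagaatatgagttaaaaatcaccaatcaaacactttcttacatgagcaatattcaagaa
PROPEP3 held 4 matches, WRKY33 held 2, MPK11 held 1 and CYP71A13 held 0. At least 1 match stood in 17 of the 29 list members (58.6%), in 37.7% of the 53 tested WRKY genes and in 28.4% of the windows of all 27443 nuclear protein-coding genes.

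The WRKY family itself, of which 53 of 67 genes were tested, had 29 members higher and 6 lower (54.7% and 11.3%, median 0.27). These shares and those of the next 2 lists are to be read against 27.1% higher and 26.5% lower of all genes. WRKY75, known from phosphate starvation and senescence, rose from 3.76, 3.34 and 3.89 CPM in WT to 10.8, 11.0 and 10.6 CPM in pkl (log2 1.56 ± 0.14, adjusted p = 3.86e-18). WRKY70, which acts in salicylic acid signalling, fell from 1.54, 0.968 and 1.0 CPM in WT to 0.35, 0.189 and 0.419 CPM in pkl (log2 -1.87 ± 0.39, adjusted p = 1.66e-05). Of 27 tested NLR genes, intracellular immune receptors that are often near copies of each other, 13 rose and 4 fell (48.1% and 14.8%). ZAR1 was at 0.67 ± 0.04 and RPP4 at 0.64 ± 0.06, while RPP8 was at -0.57 ± 0.03. In the ethylene list 12 of 23 rose and 2 fell (52.2% and 8.70%, median 0.23). The rises held 5 of 7 tested ACC synthases, which make the ethylene precursor, ACS4 at 3.67 ± 0.53, ACS8 at 1.12 ± 0.17, ACS6 at 0.96 ± 0.11, ACS2 at 0.81 ± 0.24 and ACS11 at 0.44 ± 0.16, and the oxidase ACO1, from 3.27, 2.19 and 2.46 CPM in WT to 8.45, 6.75 and 6.26 CPM in pkl (log2 1.42 ± 0.15, adjusted p = 3.47e-15).

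Class III peroxidases, secreted enzymes that oxidise wall phenolics, were spread widely. Of 63 tested, 35 rose and 14 fell (55.6% and 22.2%, against 27.1% and 26.5% of all genes; median 0.57). At least 2-fold changes were 25 rises, against 7.96% of all genes, and 7 falls, against 2.93%. AT5G19890 rose from 0.633, 0.407 and 0.541 CPM in WT to 3.43, 3.31 and 3.95 CPM in pkl (log2 2.73 ± 0.26, adjusted p = 2.03e-16), and AT4G36430 fell from 5.93, 5.45 and 5.32 CPM in WT to 1.38, 2.77 and 1.70 CPM in pkl (log2 -1.53 ± 0.19, adjusted p = 9.74e-12). AT1G77100 had 0 counts in WT and 56 in pkl, at least 8.80-fold higher against a floor of 6 counts over the group. PER64, which polymerises lignin in the Casparian strip, the ring that seals the root endodermis, rose from 5.90, 4.66 and 4.76 CPM in WT to 12, 10.8 and 12.2 CPM in pkl (log2 1.18 ± 0.11, adjusted p = 1.37e-17).

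Other Casparian strip genes rose with PER64. In the list of endodermal barrier and suberin genes 12 of 24 were higher and 4 lower (50.0% and 16.7%, against 27.1% and 26.5% of all genes; median 0.30). The membrane scaffold CASP4 had 0.941, 1.55 and 0.892 CPM in WT and 4.18, 3.67 and 3.23 CPM in pkl (log2 1.72 ± 0.21, adjusted p = 6.62e-12). The pkl libraries were above all WT libraries, and groups did not overlap for 12859 of the 22130 genes tested. CASP1, CASP5 and CASP2 rose by log2 1.03 ± 0.10, 1.01 ± 0.17 and 0.69 ± 0.15, and their regulator MYB36 by 0.89 ± 0.16. Among suberin genes, which coat the endodermis with a lipid polymer, CYP86A1 (0.33 ± 0.14), FAR5 (0.61 ± 0.22) and FAR1 (0.27 ± 0.06) rose. GPAT5 (0.18 ± 0.31) and CYP86B1 (0.11 ± 0.25) were not called. The transporter gene ABCG2 fell (-0.55 ± 0.11, adjusted p = 3.9e-06). RWP1 was called lower too, but not with DESeq2 (log2 -0.25, adjusted p = 0.0905), RLE factors, library totals, limma-trend or a replicate block. The call of RWP1 was also lost with both other filters and whenever 1 library was left out. MYB41, an inducer of suberin, fell from 0.434, 0.255 and 0.216 CPM in WT to 0.0368, 0.118 and 0.0930 CPM in pkl (log2 -1.92 ± 0.74, adjusted p = 0.0223), a call lost without WT replicate 1 (adjusted p = 0.153) or pkl replicate 1 (adjusted p = 0.123). In whole seedlings, fewer cells of a type and less RNA per cell cannot be told apart, here and for each cell type below.

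Cuticle and wax genes, active in the epidermis of the shoot, were mostly lower. Of 24 tested, 19 were called lower and 2 higher, or 79.2% lower against 26.5% of all genes (median -0.29). CER1, an enzyme of alkane formation, fell from 62.6, 62.5 and 69.8 CPM in WT to 38.9, 42.1 and 37.7 CPM in pkl (log2 -0.71 ± 0.05, adjusted p = 1.1e-24). Its partner CER3 was at -0.55 ± 0.03, the regulator MYB16 at -0.61 ± 0.08, the cutin enzyme GPAT6 at -0.61 ± 0.14 and the fatty acyl-CoA ligases LACS1 and LACS2 at -0.50 ± 0.06 and -0.42 ± 0.07. WSD1, the wax ester synthase, fell from 0.705, 0.866 and 0.784 CPM in WT to 0.258, 0.189 and 0.140 CPM in pkl (log2 -1.96 ± 0.51, adjusted p = 0.000657). Falls were small for most members and reached 2-fold for WSD1. The 2 rises were of KCS1 (0.23 ± 0.04) and CER4, a fatty acyl-CoA reductase, from 0.923, 0.891 and 0.730 CPM in WT to 3.30, 2.51 and 2.95 CPM in pkl (log2 1.77 ± 0.24, adjusted p = 2.54e-10).

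Guard cell genes were lower in 9 of 14 cases and higher in 0 (64.3% lower against 26.5% of all genes, median -0.52). The potassium channel KAT1 fell from 17.4, 17.6 and 15.9 CPM in WT to 10, 8.50 and 8.39 CPM in pkl (log2 -0.92 ± 0.10, adjusted p = 8.44e-15). The Dof factor gene SCAP1 (AT5G65590) fell from 4.63, 3.59 and 5.03 CPM in WT to 2.30, 2.37 and 1.74 CPM in pkl (log2 -1.04 ± 0.18, adjusted p = 5.61e-07), and the kinase gene BLUS1 (AT4G14480), which acts in stomatal opening by blue light, fell from 12.1, 13.3 and 11.1 CPM in WT to 7.02, 7.86 and 7.84 CPM in pkl (log2 -0.69 ± 0.10, adjusted p = 5.29e-09). The lineage factor FAMA (FMA, -0.60 ± 0.08), MYB60 (-0.55 ± 0.11) and MPK12 (-0.61 ± 0.09) also fell. Genes not called were the kinases OST1 (-0.13 ± 0.08) and HT1 (-0.49 ± 0.23), the channels SLAC1 (OZS1, -0.31 ± 0.22) and GORK (-0.23 ± 0.12), and ABCG40 (-0.03 ± 0.14).

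Phloem genes fell in 9 of 15 cases, and 1 rose (60.0% lower against 26.5% of all genes, median -0.41). SUC2, which loads sucrose into the phloem, fell from 118, 117 and 122 CPM in WT to 41.7, 38.2 and 40.5 CPM in pkl (log2 -1.56 ± 0.04, adjusted p = 6.9e-60). The phloem identity factor APL was at -0.70 ± 0.08 and the phloem lectin PP2-A1 at -0.68 ± 0.04, and BRX was the member that rose (0.58 ± 0.16). SWEET11, which releases sucrose for SUC2, fell from 226, 246 and 232 CPM in WT to 123, 123 and 123 CPM in pkl (log2 -0.93 ± 0.03, adjusted p = 2.23e-54). In the wider list of starch and sugar genes 19 of 35 fell and 7 rose (54.3% lower, 20% higher, against 26.5% and 27.1% of all genes). The starch synthesis genes ADG1 (-0.60 ± 0.03), APL1 (-0.59 ± 0.03), SS1 (-0.39 ± 0.04) and GBSS1 (-0.30 ± 0.04) fell, and the hexose carrier MSS1, also called STP13, rose from 21.5, 22.3 and 20.4 CPM in WT to 71.0, 70.9 and 69.8 CPM in pkl (log2 1.72 ± 0.06, adjusted p = 1.11e-48).

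**Figure D3:**
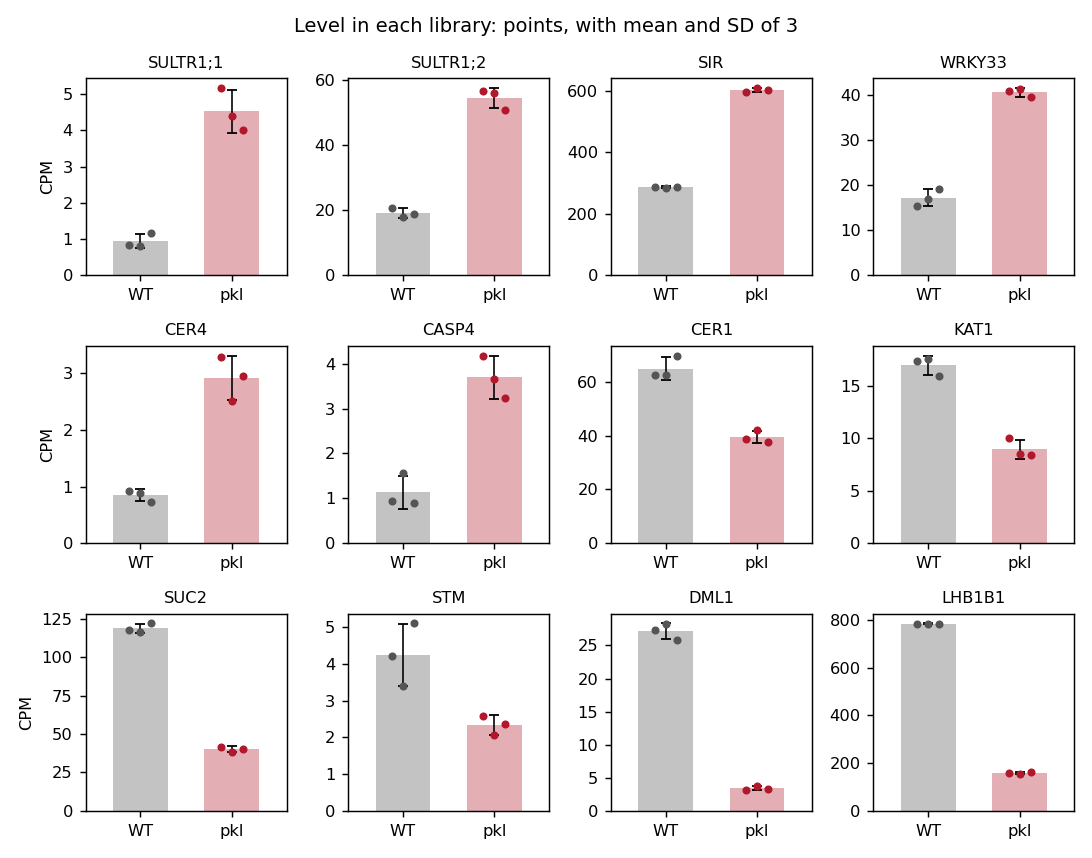
Level of 12 genes in each library (y axes in CPM from 0; points are libraries, bars the mean and error bars the SD of 3). In each panel the WT and pkl points do not overlap, as for 12859 of the 22130 genes tested. DML1 is ROS1.

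Most carbon fixation genes fell by small amounts. Of 21 Calvin cycle and photorespiration genes, 20 were called lower and 0 higher (95.2% lower against 26.5% of all genes), with a median of -0.28. The largest fall was of PGLP1 (log2 -1.56). Its call was lost with limma-trend (adjusted p = 0.0738) and without WT replicate 1 (adjusted p = 0.0659). It was also lost without pkl replicate 1 (adjusted p = 0.0880) or pkl replicate 3 (adjusted p = 0.0973). CAT2, the photorespiratory catalase, fell from 3140.3, 3209 and 3139 CPM in WT to 2073, 2025 and 1998 CPM in pkl (log2 -0.64 ± 0.02, adjusted p = 1.17e-62), and the glycine decarboxylase GLDP1 changed by -0.59 ± 0.02. The light-harvesting genes named above fell as well while Casparian strip genes of the root rose, and the part of organ proportions in these values was not tested. Of 23 fatty acid and oil genes 13 fell and 6 rose (56.5% lower, 26.1% higher). BCCP2 (-0.67 ± 0.08) and FAD3 (-0.56 ± 0.05) were lower, and TAG1, which makes triacylglycerol, rose from 15, 13.3 and 13.5 CPM in WT to 21.9, 20.5 and 20.2 CPM in pkl (log2 0.58 ± 0.08, adjusted p = 1.49e-10). Of 22 senescence genes 8 were higher and 7 lower (36.4% and 31.8%, against 27.1% and 26.5% of all genes). SEN1 fell from 499, 483 and 491 CPM in WT to 209, 217 and 219 CPM in pkl (log2 -1.19 ± 0.02, adjusted p = 1.02e-69), and NAP, a senescence regulator, changed by -0.93 ± 0.09.

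Meristem and leaf polarity genes were lower in 19 of 37 cases and higher in 2 (51.4% lower and 5.41% higher, against 26.5% and 27.1% of all genes; median -0.21). ATH1, a homeobox gene of the shoot apex, fell from 42.6, 45.6 and 45.6 CPM in WT to 21.3, 21.6 and 24 CPM in pkl (log2 -1.0 ± 0.06, adjusted p = 9.5e-31). STM, which maintains the shoot meristem, fell from 4.21, 3.41 and 5.11 CPM in WT to 2.60, 2.06 and 2.37 CPM in pkl (log2 -0.85 ± 0.18, adjusted p = 3.35e-05). The blade gene WOX1 changed by -1.14 ± 0.20, and the polarity genes YAB5, FIL (AFO) and KAN3 by -0.68 ± 0.12, -0.52 ± 0.06 and -0.61 ± 0.17. The rises were of the axillary meristem gene LAS (1.06 ± 0.32) and of AIL6 (0.47 ± 0.14). Of 26 cytokinin genes 7 were higher and 7 lower, shares near those of all genes (26.9% and 26.9%). The response regulator ARR3 rose from 0.778, 0.509 and 0.514 CPM in WT to 2.74, 3.12 and 3.23 CPM in pkl (log2 2.30 ± 0.26, adjusted p = 5.23e-13), while the activating enzyme LOG1 fell from 18.3, 18.1 and 19.3 CPM in WT to 9.04, 8.38 and 8.72 CPM in pkl (log2 -1.09 ± 0.09, adjusted p = 2.2e-21) and its relative LOG7 rose by log2 1.02 ± 0.12. Of 29 lignin and secondary wall genes 10 were higher and 13 lower (34.5% and 44.8%), with FAH1, a syringyl lignin enzyme, at 0.87 ± 0.05 and XCP2, a protease of xylem vessels, at -0.56 ± 0.04. Of 21 listed pollen and anther genes 5 could be tested, 0 rose and 1, TPD1, fell (-0.17 ± 0.06; not called with library totals, adjusted p = 0.114).

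In the lists of silencing, H3K4 and histone genes, the shares called lower were near the 26.5% of all genes. The shares called higher were under the 27.1% of all genes. In the list of DNA methylation and silencing genes 5 of 34 rose and 10 fell (14.7% and 29.4%, median -0.11), with the methyltransferase CMT2 at -0.58 ± 0.06. The related glycosylase DML2 was at 0.35 ± 0.07. The list of H3K4 methyltransferases and demethylases also holds genes for other histone marks, among them JMJD5, and for complex subunits. Of its 24 tested genes 1, SDG4, rose (4.17%, log2 0.36 ± 0.11) and 7 fell (29.2%). The largest fall was of JMJD5, a jumonji gene that oscillates with the clock, from 23.3, 21.7 and 24.8 CPM in WT to 12.4, 12.9 and 12.9 CPM in pkl (log2 -0.87 ± 0.07, adjusted p = 2.09e-20). SDG25 was at -0.29 ± 0.06 and JMJ14 at -0.24 ± 0.05. Of 42 histone genes 8 rose and 11 fell (19.0% and 26.2%), HIS1-3, the stress-induced linker histone, at 0.55 ± 0.04 and HTA4 at -1.15 ± 0.27. Of 99 MADS-box genes 40 were tested, and 8 rose and 14 fell (20% and 35.0%). PHE1, an imprinted gene of the endosperm, rose from 0.145, 0.102 and 0 CPM in WT to 2.49, 2.04 and 2.93 CPM in pkl (log2 4.74 ± 0.43, adjusted p = 6.3e-17), and AGL104, known from pollen, fell from 1.07, 0.942 and 1.32 CPM in WT to 0.129, 0 and 0.116 CPM in pkl (log2 -3.66 ± 0.54, adjusted p = 3.84e-09). Of 27 antioxidant genes 12 were higher and 8 lower (44.4% and 29.6%, against 27.1% and 26.5% of all genes), with the copper chaperone CCS at 0.69 ± 0.04 and the thylakoid peroxidase TAPX at -0.54 ± 0.04.

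By gene class, loci with dotted identifiers, such as AT4G04410.1, listed as a pseudogene in the reference, rose in 83 of 238 tested cases (34.9%) and fell in 34 (14.3%), against 27.1% and 26.5% of all genes, with a median of 0.22, or 0.18 with genes at 0 counts in a group set to their bound. They held 0.215% to 0.220% of all counts in WT and 0.265% to 0.271% in pkl. How reads with several matches were counted is not given in the sources used here, so values of repeated loci are uncertain. Of 41 mitochondrial genes 11 rose (26.8%, near the 27.1% of all genes) and 0 fell, with a median of 0.60, and of 69 plastid genes 15 fell (21.7%, under the 26.5% of all genes) and 0 rose, with a median of -0.38. These poly(A)-selected libraries held 0.00583% to 0.00804% mitochondrial counts in WT and 0.00810% to 0.00889% in pkl, and 0.0161% to 0.0218% plastid counts in WT and 0.0138% to 0.0148% in pkl.

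There were 14 runs of at least 4 tested neighbours that were all called in 1 direction with at least 2-fold changes, 13 of them higher. Of all genes 7.96% were at least 2-fold higher and 2.93% lower, so higher runs had more genes to form from. Whether runs were more frequent than these shares give was not tested. The longest was of 7 genes over 62.1 kb of chromosome 4 (8751387 to 8813478, build TAIR10), from CYP705A1 to BIA1. It holds PEN1, a triterpene synthase known to make arabidiol, with P450 and acyltransferase genes that belong to such clusters. PEN1 rose from 4.16, 5.70 and 5.32 CPM in WT to 19.2, 17.9 and 15.7 CPM in pkl (log2 1.82 ± 0.10, adjusted p = 6.41e-31). CYP705A1 rose from 5.06, 4.48 and 7.03 CPM in WT to 18.0, 18.7 and 18.1 CPM in pkl (log2 1.74 ± 0.10, adjusted p = 4.41e-30), and the acyltransferase gene AT4G15390 rose from 20, 16.6 and 19.1 CPM in WT to 85.1, 82.7 and 82.4 CPM in pkl (log2 2.16 ± 0.05, adjusted p = 1.6e-65). The pkl values were above all WT values for all 3 genes, and groups did not overlap for 12859 of the 22130 genes tested. BIA1, an acyltransferase that inactivates brassinosteroids, rose by log2 1.35 ± 0.18, and CYP702A5, CYP702A6 and CYP705A4 by 2.53 ± 0.18, 2.45 ± 0.27 and 1.24 ± 0.18. The next tested gene, PUX5, was not called (0.10 ± 0.08), and on the other side CSLB06 was called lower, with 0.579, 0.204 and 0.432 CPM in WT and 0, 0 and 0.0930 CPM in pkl, too few counts for a fold.

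**Figure D4:**
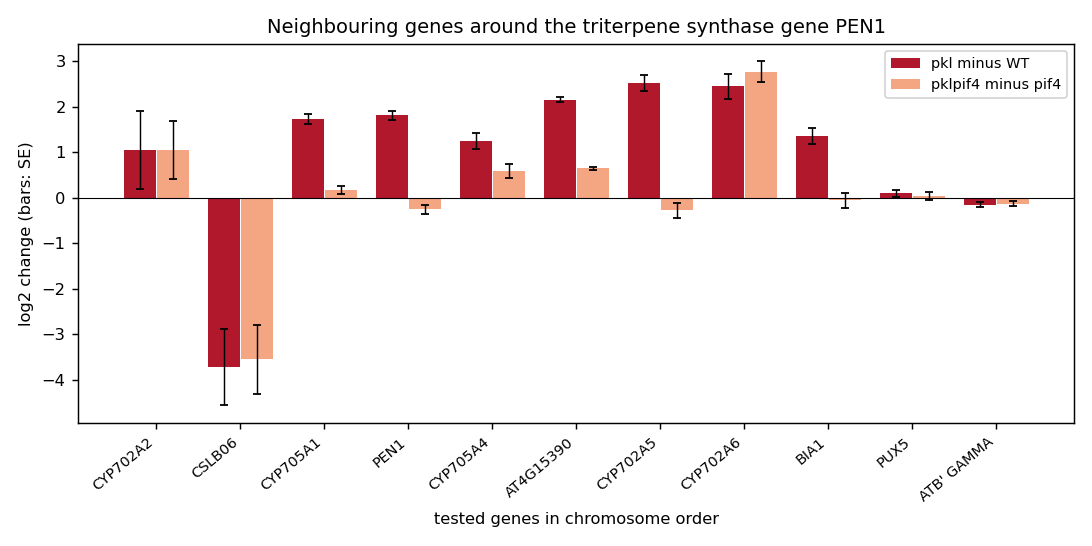
Log2 change ± SE (y axis) of 11 tested neighbours in chromosome order (x axis) for pkl minus WT (dark) and pklpif4 minus pif4 (light). The 7 genes from CYP705A1 to BIA1 are all at least 2-fold higher in pkl, and 3 of them were called higher and 1 lower in the second comparison; the bars of CSLB06 are fitted values that rest on few counts.

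Other runs held the nicotinamidase genes NIC3 (1.99 ± 0.14) and NIC2 (1.3 ± 0.15), the fucosyltransferase genes FUT5 (2.60 ± 0.26) and FUT4 (1.65 ± 0.15), the glucosyltransferase genes UGT73C6 (1.14 ± 0.11), whose reads overlap the antisense AT2G36792, and DOGT1 (1.24 ± 0.06), and the storage albumins SESA1 to SESA4. The albumins were near silent in WT and stayed low in pkl, SESA2 with means of 0.052 and 1.48 CPM. SESA1 had 0 counts in WT and 82 in pkl, SESA3 2 and 48, and SESA4 0 and 43. On chromosome 4 (2184059 to 2204264) 5 loci around AT4G04410.1 rose, that locus from 33.9, 35.1 and 33.6 CPM in WT to 386, 389 and 392 CPM in pkl (log2 3.51 ± 0.03, adjusted p = 2.35e-103). On chromosome 2 (732388 to 757942) 4 genes of the C1 domain family rose, AT2G02700 from 0.416, 0.382 and 0.162 CPM in WT to 4.53, 3.24 and 3.51 CPM in pkl (log2 3.51 ± 0.35, adjusted p = 1.38e-15). The run that fell was that of AZI1 (-1.16 ± 0.09) and EARLI1 (-1.12 ± 0.05), lipid transfer protein genes of systemic immunity. Such tandem genes resemble each other, so reads may be split wrongly among them.

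The pkl-1 allele is also in the label of the pklpif4 seedlings, and these 3 libraries were compared with the 3 labelled pif4, none of which is in the comparison above. PIF4 itself had 178, 172 and 172 CPM in the pif4-labelled libraries and 149, 149 and 147 in the pklpif4-labelled ones, all above WT, so its level goes against a loss of the transcript and the groups are named by their labels. There 25.5% of genes were called higher and 24.7% lower. Of the 1762 genes at least 2-fold higher in pkl, 988 (56.1%) were called higher in the pif4-labelled background and 107 (6.07%) lower. Of the 649 at least 2-fold lower, 429 (66.1%) were called lower and 40 (6.16%) higher. The median changes were 0.69 and -0.97, against 1.68 and -1.49 in pkl against WT. The difference between backgrounds was tested as an interaction, which was called for 31.9% of all genes, for 57.5% of those at least 2-fold higher and for 41.8% of those at least 2-fold lower, genes that were themselves chosen on 1 side of that difference.

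Of the 24 genes named above by the size of their change, 22 were called in the same direction in the pif4-labelled background. Among the 22, AIG1 rests on few counts there, 8 over the libraries labelled pif4 and 0 over those labelled pklpif4. SUC7 had 0 and 93. ROS1 (DML1) was at -3.25 there (adjusted p = 1.35e-52), DTX1 at 3.62 and EXPA2 at 4.03. The exceptions were CRU3 (9.46) and GolS2 (1.45), which were higher. The 6 light-harvesting genes named above were all called higher there, LHB1B1 at 1.12 (interaction log2 3.43, adjusted p = 1.49e-107), LHCB3 at 0.82, LHB1B2 at 0.49, LHCA4 at 0.36, LHCB4.2 at 0.36 and LHCA2 at 0.09. Of the 21 Calvin cycle and photorespiration genes, 12 were higher and 7 lower there (median 0.07), against 0 and 20 in pkl against WT. Over all genes 25.5% were higher and 24.7% lower in the pif4-labelled background.

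Lists also differed between the backgrounds, a difference that was tested for single genes only. In the pif4-labelled background 20 of 24 cuticle genes and 11 of 14 guard cell genes were lower against 24.7% of all genes (medians -0.36 and -0.70), and 2 and 1 were higher. Sulfate genes were split there, 8 higher and 8 lower of 18, with SULTR1;2 at 0.73 and LSU1 at -2.0 (interaction adjusted p = 7.16e-15 and 9.12e-11). Of 24 endodermal barrier and suberin genes, 5 were higher and 13 lower there (median -0.29), against 25.5% and 24.7% of all genes. Of the Casparian strip genes, CASP4 was at 0.33 (adjusted p = 0.14) and PER64 at -0.40 (adjusted p = 0.000564, interaction adjusted p = 1.34e-16). FRO2 was at -2.67 (interaction adjusted p = 1.44e-39), and 14 of 21 iron genes were lower. In the triterpene run, PEN1 was at -0.25 and CYP702A6 at 2.77 (interaction adjusted p = 7.44e-25 and 0.582). WRKY33 rose in both backgrounds, by 1.25 and 1.27. In the pif4-labelled background 11 of 29 surface immunity genes were higher and 5 lower, and of 53 WRKY genes 15 and 8. Of 27 NLR genes 7 were higher and 13 lower there, of 23 ethylene genes 5 and 8, and of 63 class III peroxidases 24 and 23.

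**Figure D5:**
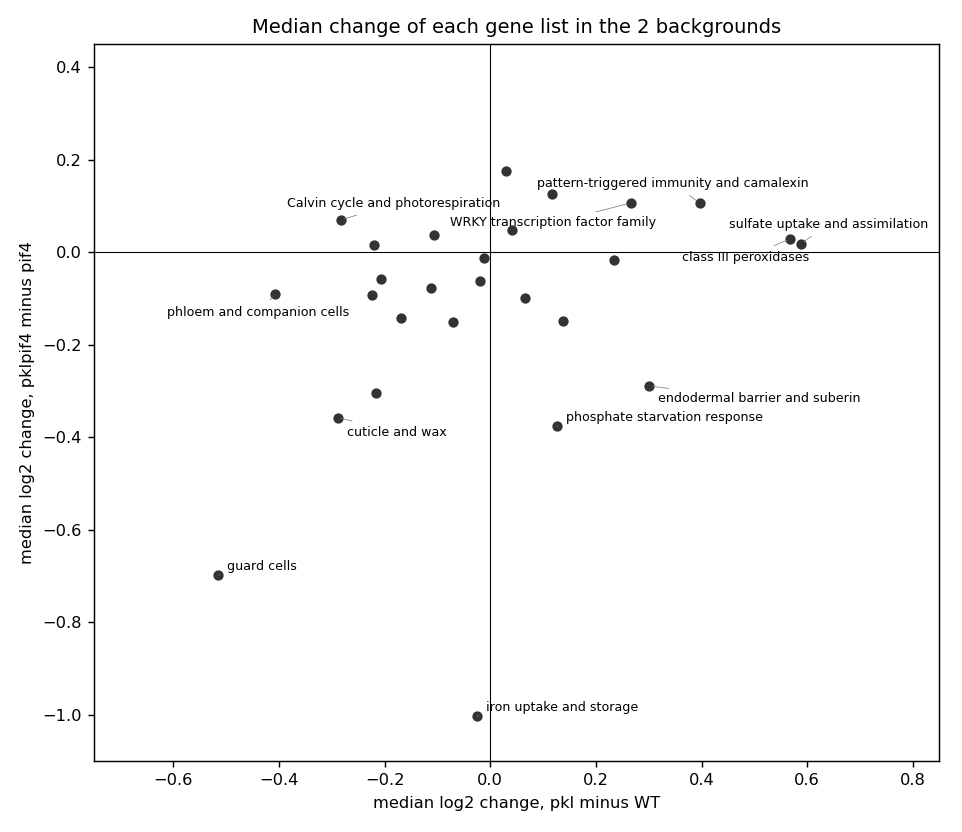
Median log2 change of each of the 27 lists for pkl minus WT (x axis) and pklpif4 minus pif4 (y axis); each point is a list. Guard cells and cuticle are below 0 on both axes, sulfate uptake is at 0.59 and 0.02, and iron at -0.03 and -1.0.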

How the data were processed

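Poly(A) RNA of whole seedlings was sequenced by the authors, per the labels' protocols. The submitters' processing notes name fastp, HISAT2 2.1.0, SAMtools 1.6 and build TAIR10. The sources used here do not give how reads were counted, whether strand was used, or how reads with several matches were treated. In 2 kinds of table the authors deposited raw counts per gene and FPKM values, and all FPKM values were within 1% of count over length and library total. The tables named cR held the same values in all 12 columns, so their 24 columns were not used, and the growth condition rests on the column names. Of counts from 1 to 20 in the 6 libraries, 69.1% were even, so halved counts were an alternative and the floor for a group at 0 was 3 fragments, or 6 counts.

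From the counts, edgeR 4.0.16 (R 4.3.3) was fitted to all 12 libraries at 28 (4 genotypes, TMM factors, filterByExpr, robust quasi-likelihood test, two-sided). The fit was tested on simulated data with known changes. Each SE was derived as the absolute log2 change over the square root of its F statistic, since edgeR reports none. No set test was run: lists are described by counts and medians. The members and lists were chosen with earlier results of these data known, and the peroxidase list was completed from the reference's product names. Genes were named by 5 rules: the 12 largest rises and falls with a symbol, at least 5 CPM and groups apart; the 6 largest in FPKM with at least 1.5-fold change; up to 3 called members of each list in each direction and those its makeup needs; runs of neighbours; PKL and PIF4. LHB1B1 and the C1 domain genes were followed up after their values were seen. Some genes that these rules name are not reported here. Positions are those of the deposited table, and symbols and sequences are from RefSeq TAIR10.1. Alternatives used RLE factors, library totals, other filters, DESeq2 1.42.0, limma 3.58.1, the 6 libraries alone, halved counts, a replicate block and each library left out.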

Additional observations from a re-analysis of the deposited data

Results flagged for a closer look

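For 14 of the 24 genes named by the size of their change, the effect of pkl differed between the WT and the pif4-labelled background (interaction, edgeR adjusted p under 0.05, log2 of the second effect minus the first). Differences below 0 were found for MDHAR (-2.96), RLP19 (-2.44), OCT1 (-1.64), CEP2 (-1.51), RING1B (-1.43), CAD3 (-1.43), MYB29 (-0.96) and BGLU19 (-0.24). Of these, RLP19 and MYB29 fell further in the pif4-labelled background and the other 6 rose less. Differences above 0 were found for CYP71B13 (0.73), EXPA16 (1.73) and MES8 (2.1), which fell less, for GolS2 (3.99) and CRU3 (13.35), which fell in pkl and rose in the pif4-labelled background, and for SUC7 (4.49). SUC7 had 0 counts in the pif4-labelled libraries, so its fitted difference is not a bound. CRU3, a seed storage globulin, had 1.70 ± 0.197 CPM in libraries labelled pif4 and 1192 ± 12.9 CPM in those labelled pklpif4 (mean ± SD, n = 3), against 17.0, 15.9 and 17.2 CPM in WT and 1.14, 1.40 and 0.837 in pkl. The cause of these differences was not tested.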

How the results depend on the processing

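Each of the 235 named genes kept its direction in every alternative that tested it. Cases in which an alternative did not test a gene are not among the values counted. Of 3398 values, 3324 kept their call, 67 lost it and 7, all of PKL, gained it, over 21 genes. When only genes with a mean of at least 5 CPM were tested, and thus fewer genes, the genes at least 2-fold higher went from 1762 to 510 and those lower from 649 to 173, and called rises went from 12 to 6 for endodermal genes, from 35 to 23 for class III peroxidases and from 29 to 16 for WRKY genes. The other counts of the comparison and of the 10 lists led with stayed within 1.5 times under the other settings. Without each library in turn, 5518 to 5608 genes were higher and 5373 to 5525 lower. Library totals gave 7474 higher and 4576 lower and moved the median of all genes to 0.07. Replicate numbers did not pair the samples (correlation of same-numbered deviations from -0.0217 to -0.00213); with the replicate block 5966 genes were higher and 5844 lower, 983 and 429 of the at least 2-fold genes were called alike in the pif4-labelled background, and HTR11 and RWP1 lost their calls. Depth limits genes with few counts, such as PROPEP3, whose counting interval is wide.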

Other observations

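Product names of the reference were a second way to group genes, chosen after the results were known. Of the 74 names held by at least 25 tested genes, the Cysteine/Histidine-rich C1 domain family had the highest share of genes at least 2-fold higher in pkl, 48 of 106 (45.3%, against 7.96% of all genes), with 2 at least 2-fold lower and a median of 0.90. These zinc-binding domain proteins are a large plant family. Most of the 106 genes were under 5 CPM in both groups, a level at which large rises were more frequent. Of all genes with a mean under 1 CPM over the 12 libraries fitted, 23.1% were at least 2-fold higher, and of those at 1 to 5 CPM 15.5%. AT2G02700 went from 0.416, 0.382 and 0.162 CPM in WT to 4.53, 3.24 and 3.51 CPM in pkl, and AT5G55770 from 0.0724, 0.0509 and 0.0811 CPM in WT to 0.921, 0.852 and 0.930 CPM in pkl. In the pif4-labelled background 28 of the 106 were called higher and 12 lower, a share of higher calls near the 25.5% of all genes. Mannose-binding lectins, sugar-binding proteins of which several are linked to defence, had 10 of 27 at least 2-fold higher and 4 at least 2-fold lower (median 0.74).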
